A study of Mus musculus with 8 samples.

Results

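Endothelial cells line the blood vessels of the testis, which run in the interstitial tissue between the seminiferous tubules. The measurements below follow 8 genes that are used as marks of these cells: Robo4, Emcn, Esam, Tek, Plvap, Pecam1, Kdr and Cdh5. They were taken as every probe set that carries one of these symbols, which gave 9 probe sets, with 2 for Cdh5 and 1 for each other gene, among 45037 probe sets and 18194 genes with a single symbol on the array.

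Testis RNA was taken from male mice on postnatal day 28, of a mixed background of C57BL6/6J and 129, with 1 array for each sample. All 8 were Dmrt1 flox/flox, so the controls also carried the floxed allele of Dmrt1, which encodes a DNA-binding factor made in Sertoli cells and in germ cells. In 4 samples Cre recombinase was driven by the promoter of Nr5a1 (Sf1-Cre), in 2 by the promoter of Dhh (Dhh-Cre), and the 2 controls had no Cre. The submitters describe both promoters as specific to Sertoli cells, the supporting cells inside the tubule, so neither was chosen to act in endothelium, and the comparisons ask how transcripts of the testis differed after the 2 deletions. The labels call the samples biological replicates but give no litter or animal number, and precision is limited by how few arrays there are.

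Signal through the endothelial surface depends on a small set of receptors and adhesion proteins. Kdr encodes the main receptor for vascular endothelial growth factor (VEGF), and Tek encodes the receptor for the angiopoietins. Robo4 is a roundabout receptor of endothelium. Cdh5 (VE-cadherin), Esam and Pecam1 encode adhesion proteins of the contacts between endothelial cells, Emcn encodes the sialomucin endomucin of the endothelial surface, and Plvap encodes the protein of the diaphragms that span fenestrae and caveolae.

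RefSeq windows of 250 bases before to 50 after a start site (GRCm38.p6) were matched by symbol for 4 of the 8 genes. Those of Robo4, Emcn and Tek are shown because Robo4 and Emcn passed against controls under every alternative run and Tek alone was above the detection floor in controls. They lie at chr9:37401722-37402021, chr3:137340828-137341127 and chr4:94739039-94739338, all on the plus strand. Capitals mark letters of the motifs searched, on both strands: GGAAGT for ETS factors, AGATAA for GATA factors, TGTTTAC for FOX factors and ACATTGT for the core that DMRT1 binds.
Robo4: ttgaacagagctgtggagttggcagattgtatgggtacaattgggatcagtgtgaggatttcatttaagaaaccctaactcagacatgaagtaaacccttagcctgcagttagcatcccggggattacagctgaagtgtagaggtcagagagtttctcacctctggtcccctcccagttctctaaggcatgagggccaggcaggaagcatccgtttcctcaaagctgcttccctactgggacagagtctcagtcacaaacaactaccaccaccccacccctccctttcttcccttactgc
Emcn: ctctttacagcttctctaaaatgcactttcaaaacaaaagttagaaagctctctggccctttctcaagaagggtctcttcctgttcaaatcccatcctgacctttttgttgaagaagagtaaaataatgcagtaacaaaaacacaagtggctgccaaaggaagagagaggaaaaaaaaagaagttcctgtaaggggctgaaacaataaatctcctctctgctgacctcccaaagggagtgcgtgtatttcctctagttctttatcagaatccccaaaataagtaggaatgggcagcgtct
Tek: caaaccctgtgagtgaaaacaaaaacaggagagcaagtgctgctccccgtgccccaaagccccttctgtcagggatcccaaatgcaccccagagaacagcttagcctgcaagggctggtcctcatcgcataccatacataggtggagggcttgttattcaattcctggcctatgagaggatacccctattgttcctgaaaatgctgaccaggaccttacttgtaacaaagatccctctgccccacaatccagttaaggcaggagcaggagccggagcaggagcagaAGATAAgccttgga
The windows of Robo4 and Emcn held none of these letters, and that of Tek held AGATAA once, 36 bases past the start. The window of Kdr held GGAAGT once, on the minus strand, 217 bases before the start. None of the 4 windows held TGTTTAC or ACATTGT. Over all 32851 windows of this length, 23.8% held GGAAGT, 11.2% AGATAA, 3.65% TGTTTAC and 2.96% ACATTGT. A match is a description of these letters and not of binding, and the motifs do not overlap one another in these windows.

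Of the arrays as a whole, median intensity ran from 13.7 to 15.9. The Dmrt1 probe set read 137 to 237 intensity units in the Sf1-Cre arrays, 1377 and 979 in Dhh-Cre, and 361 and 433 in the controls. It was lower in Sf1-Cre (log2 fold change -1.09 ± 0.25 SE, limma adjusted p = 0.00368) and higher in Dhh-Cre (1.55 ± 0.28 SE, limma adjusted p = 0.00117). The rise over controls depends on scaling, since centring on housekeeping or peritubular genes, described below, takes 1.71 or 1.52 off each Dhh-Cre difference. Between the mutant groups the probe set was lower in Sf1-Cre than in Dhh-Cre (-2.64 ± 0.25 SE, limma adjusted p = 0.000577). The label names a deletion in Sertoli cells and germ cells also make Dmrt1, so in whole testis this probe set cannot check that label. Every direction below for Dhh-Cre is for arrays so labelled. Where the probe set lies relative to the deleted part is not stated by the labels. The summed intensity of 15 spermatid genes was 7117 to 16740 in Sf1-Cre, 4398 and 16460 in Dhh-Cre, and 92470 and 84560 in the controls. The 3' to 5' ratio of the Actb control probe sets, a sign of RNA quality, was 9.45 to 13.5 in Sf1-Cre, 13.6 and 9.51 in Dhh-Cre, and 4.89 and 4.44 in the controls. That of Gapdh was not higher in the mutants, at 1.67 to 2.34 in Sf1-Cre, 3.30 and 1.90 in Dhh-Cre, and 3.58 and 2.96 in the controls. Spink8, an epididymal gene, reached log2 10 or above in 3 arrays, Sf1-Cre replicates 1 and 3 and Dhh-Cre replicate 1. The spermatid sums and the Actb ratio moved with the groups, while Spink8 varied within them, and their part in the results below was not tested, except that counts without the 3 Spink8 arrays are given.

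A log2 intensity of 4 served as the detection floor, and a probe set was tested where at least 2 arrays reached it. In the controls 8 of the 9 probe sets had a mean under log2 4, those of Robo4, Emcn, Esam, Plvap, Pecam1, Kdr and both of Cdh5, and Tek alone lay above it. Of these 8, 7 were under it on both control arrays, and Robo4 was at 4.06 on 1 of them. The 6 genes tested were Robo4, Emcn, Esam, Tek, Plvap and Kdr, of which 4 had no control array at the floor and entered the test through mutant arrays alone. A fold against a group with a mean under log2 4 is therefore given as a bound against that floor. Near the threshold, Kdr was just inside with a highest value of 4.41, and Plvap with 4.67, while the closest probe set outside, Cdh5 1433956_at, did not exceed 2.82.

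Pecam1 and Cdh5, which are widely used to define endothelium, were not measured above the floor in any array. Pecam1 (1421287_a_at) read 2.34, 2.62, 2.43 and 2.56 log2 units in Sf1-Cre, 2.29 and 2.20 in Dhh-Cre, and 2.36 and 2.59 in the controls. The first Cdh5 probe set (1422047_at) read 1.84, 1.89, 1.73 and 1.99 in Sf1-Cre, 1.80 and 1.93 in Dhh-Cre, and 2.06 and 2.69 in the controls. The second (1433956_at) read 2.67, 2.76, 2.77 and 2.82 in Sf1-Cre, 2.50 and 2.71 in Dhh-Cre, and 2.19 and 2.18 in the controls. All 3 probe sets stayed under the floor, and the endothelial label of the 8 genes rests here on the other 6. With no filter on low values, the 2 Cdh5 probe sets went opposite ways in Sf1-Cre, at -0.51 ± 0.18 SE (limma adjusted p = 0.0416) and 0.57 ± 0.12 SE (adjusted p = 0.00319), and since all group means lay under log2 4 no fold is given.

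**Figure D1:**
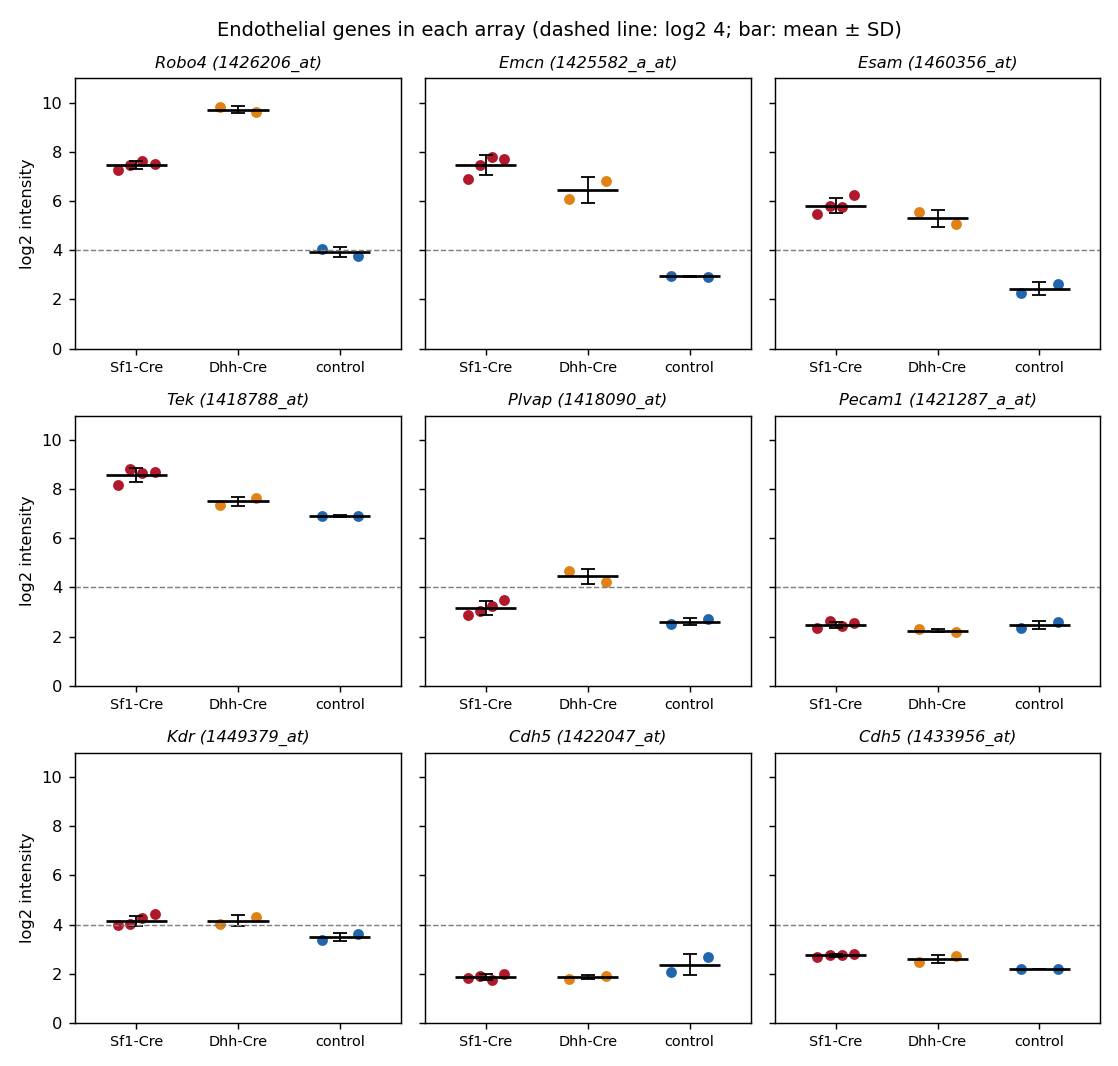
Log2 intensity (y axis) of the 9 probe sets in each array, by group, with points for arrays, black lines for group means and bars for SD (4 Sf1-Cre, 2 Dhh-Cre and 2 control arrays). Robo4 lies at 9.82 and 9.62 in Dhh-Cre, above its Sf1-Cre and control arrays, and Pecam1 and both Cdh5 probe sets stay under the dashed line at log2 4 in every array.

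Robo4, the roundabout receptor gene, rose in both mutant groups and most in Dhh-Cre. Its log2 intensity (1426206_at) was 7.27, 7.46, 7.64 and 7.50 in Sf1-Cre, 9.82 and 9.62 in Dhh-Cre, and 4.06 and 3.78 in the controls. No array of 1 group overlapped another group. Robo4 was at least 10.8-fold higher in Sf1-Cre than in controls (log2 fold change 3.54 ± 0.17 SE, limma adjusted p = 8.73e-07). In Dhh-Cre it was at least 51.6-fold higher than in controls (5.80 ± 0.19 SE, limma adjusted p = 8.42e-07). Set against each other, the Sf1-Cre arrays were 4.77-fold lower than the Dhh-Cre arrays (-2.25 ± 0.17 SE, limma adjusted p = 0.000216). In whole testes a larger share of endothelial cells and more RNA of a gene per cell cannot be told apart, here and for each gene below.

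Emcn, the endomucin gene, rose in both groups with the larger difference in Sf1-Cre. It (1425582_a_at) read 6.91, 7.46, 7.81 and 7.73 in Sf1-Cre, 6.10 and 6.83 in Dhh-Cre, and 2.96 and 2.93 in the controls. The mutant arrays lay far above both controls, and the lowest Sf1-Cre array was only slightly above the higher Dhh-Cre array. Emcn was at least 11.1-fold higher in Sf1-Cre (4.53 ± 0.30 SE, limma adjusted p = 3.98e-06) and at least 5.52-fold higher in Dhh-Cre (3.52 ± 0.34 SE, limma adjusted p = 3.68e-05) than in controls. In Sf1-Cre it was 2.01-fold higher than in Dhh-Cre (1.01 ± 0.30 SE, limma adjusted p = 0.0451). That call was lost in 13 of 22 alternatives, among them the fit with replicate numbers as a block (0.72, adjusted p = 0.114) and each fit without control replicate 1 or 2, Dhh-Cre replicate 1, or Sf1-Cre replicate 2, 3 or 4, in which the adjusted p was 0.0728 to 0.311 and the value as low as 0.64.

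Esam, an adhesion gene of endothelial contacts and platelets, followed the same direction from a control level near background. It (1460356_at) read 5.48, 5.80, 5.77 and 6.24 in Sf1-Cre, 5.55 and 5.05 in Dhh-Cre, and 2.25 and 2.62 in the controls. All mutant arrays lay above the controls, and the 2 mutant groups overlapped. Esam was at least 3.54-fold higher in Sf1-Cre (3.39 ± 0.25 SE, limma adjusted p = 7.16e-06) and at least 2.46-fold higher in Dhh-Cre (2.87 ± 0.29 SE, limma adjusted p = 4.31e-05). The difference of 0.52 ± 0.25 SE between the mutant groups did not pass (adjusted p = 0.172).

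Tek, the angiopoietin receptor gene, was the one gene of the 8 with a control level above the floor, so its fold is not a bound. It (1418788_at) read 8.17, 8.82, 8.68 and 8.69 in Sf1-Cre, 7.37 and 7.63 in Dhh-Cre, and 6.90 and 6.93 in the controls. The 3 groups did not overlap. Tek was 3.21-fold higher in Sf1-Cre than in controls (1.68 ± 0.20 SE, limma adjusted p = 0.000116), but read -0.071 once each array was centred on housekeeping genes. In Dhh-Cre the difference was 0.59 ± 0.24 SE (1.51-fold, limma adjusted p = 0.0475). It missed in 12 of 22 alternatives and turned to -1.12 with housekeeping centring and to -0.93 with centring on smooth muscle genes of peritubular cells. Every fit without 1 array lost this call except that without Sf1-Cre replicate 1, with adjusted p up to 0.196. Tek was 2.13-fold higher in Sf1-Cre than in Dhh-Cre (1.09 ± 0.20 SE, limma adjusted p = 0.00929), and this call was lost without Dhh-Cre replicate 1 (adjusted p = 0.0836).

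Plvap and Kdr gave small differences close to the floor. Plvap (1418090_at), the diaphragm gene, read 2.87, 3.04, 3.23 and 3.50 in Sf1-Cre, 4.67 and 4.23 in Dhh-Cre, and 2.51 and 2.71 in the controls. Only the Dhh-Cre arrays reached log2 4, and no group overlapped another. Plvap was at least 1.37-fold higher in Dhh-Cre than in controls (1.85 ± 0.25 SE, limma adjusted p = 0.000221) and at least 1.37-fold lower in Sf1-Cre than in Dhh-Cre (-1.29 ± 0.22 SE, limma adjusted p = 0.00617). The last call was lost without Dhh-Cre replicate 1 (adjusted p = 0.0614). The difference from controls in Dhh-Cre was 0.13 under housekeeping centring (adjusted p = 0.652) and 0.32 under peritubular centring (adjusted p = 0.412). Against controls the Sf1-Cre difference was 0.55 ± 0.22 SE (limma adjusted p = 0.0446), with both means under the floor, and it became -1.20 under housekeeping centring and -0.25 under peritubular centring. It was also lost without either control array or without Sf1-Cre replicate 2, 3 or 4 (adjusted p 0.0588 to 0.206) and with the replicate block (0.35, adjusted p = 0.248).

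Kdr (1449379_at), the VEGF receptor gene, read 3.97, 4.02, 4.25 and 4.41 in Sf1-Cre, 4.00 and 4.31 in Dhh-Cre, and 3.36 and 3.60 in the controls. The mutant groups overlapped each other and lay just above the controls. Kdr was at least 1.12-fold higher in Sf1-Cre (0.68 ± 0.19 SE, limma adjusted p = 0.0092) and at least 1.11-fold higher in Dhh-Cre (0.68 ± 0.21 SE, limma adjusted p = 0.0188), but lower by limma under housekeeping centring, at -1.07 and -1.04, with -0.12 and -0.85 under peritubular centring. With values under log2 4 set to 4, as in the bounds, neither call held, at 0.17 in Sf1-Cre (adjusted p = 0.35) and 0.16 in Dhh-Cre (adjusted p = 0.456). Without control replicate 1 the adjusted p was 0.0768 in Sf1-Cre and 0.101 in Dhh-Cre, and in Dhh-Cre the call was also lost without Dhh-Cre replicate 2 (adjusted p = 0.109). With replicate numbers as a block the Sf1-Cre call was lost (0.52, adjusted p = 0.0593). Sf1-Cre and Dhh-Cre arrays differed in Kdr by 0.01 ± 0.19 SE (adjusted p = 0.981).

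**Figure D2:**
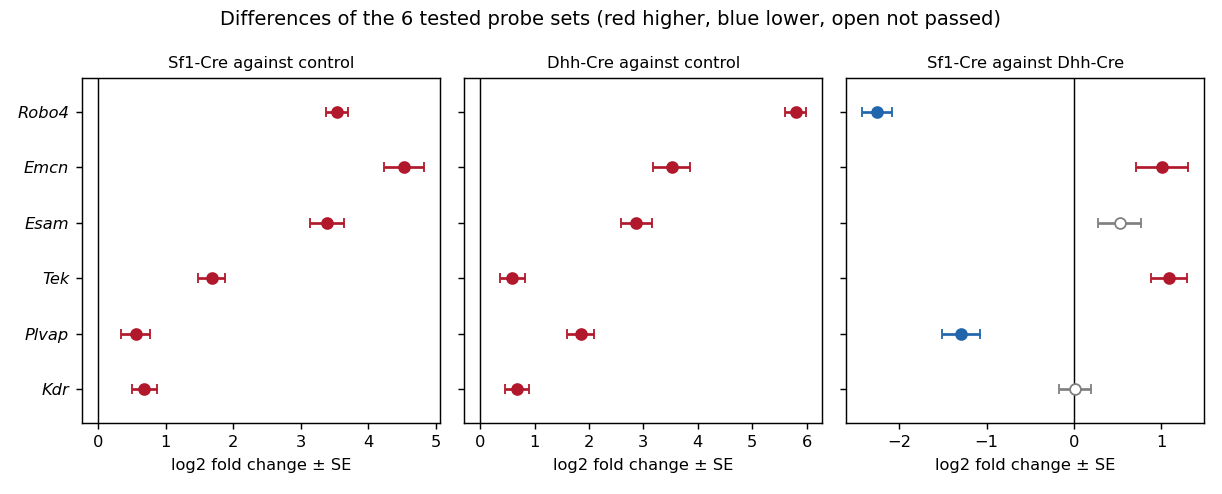
Log2 fold change with its SE (x axis) of the 6 tested genes (y axis) in Sf1-Cre against control, Dhh-Cre against control and Sf1-Cre against Dhh-Cre, from limma on all 8 arrays. All 6 are higher than in controls in both groups as deposited, with Tek, Plvap and Kdr turning under housekeeping centring in Sf1-Cre and Tek and Kdr in Dhh-Cre, whereas between the mutant groups Robo4 and Plvap are lower and Emcn and Tek higher in Sf1-Cre.

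By limma, all 6 tested genes passed as higher in Sf1-Cre than in controls and did not overlap them, with Tek, Plvap and Kdr under 0 when centred on housekeeping genes. Of all 25761 probe sets tested, 77.6% passed there, 45.9% as higher and 31.6% as lower, and 49.5% lay without overlap above and 34.4% below the controls. Higher calls made up 79.7% of the tested probe sets with a control mean under log2 4. In Dhh-Cre all 6 also passed as higher than in controls and did not overlap them, with Tek and Kdr under 0 when centred on housekeeping genes. There 78% of all probe sets passed, 49.1% as higher and 28.8% as lower, and 57.1% lay without overlap above and 33.5% below the controls. Higher calls made up 83.9% of those with a control mean under log2 4. Since 5 of the 6 genes had such a control mean, their count is near that of other probe sets that start there. The median log2 fold change of the 6 was 2.54 in Sf1-Cre and 2.36 in Dhh-Cre, or 1.75 and 0.95 with values under log2 4 set to 4, beside medians of 0.36 and 0.57 over all probe sets tested and 1.52 and 1.62 over those low in controls. The comparisons share the 2 control arrays. Without the 3 Spink8 arrays, an alternative added after seeing the data, 6 genes were again higher in each comparison with controls.

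Set against Dhh-Cre, the genes in Sf1-Cre split. Emcn and Tek were higher in Sf1-Cre, 2 of 6 against 10.2% of all probe sets, and Robo4 and Plvap were lower, 2 of 6 against 11.2%, with 21.4% called in either direction. These 4 did not overlap, where 21.5% of all probe sets lay without overlap above and 23.8% below. Esam and Kdr did not pass. The Robo4 difference passed in all 22 alternatives, with values of -2.36 to -1.53. Without the 3 Spink8 arrays Robo4 passed as lower, Plvap did not (-0.96, adjusted p = 0.141), and 0 passed as higher by limma, where 1151 probe sets were called in all, Tek then reading 1.13 with adjusted p = 0.0653, and Emcn 0.76 with adjusted p = 0.17.

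Within arrays the genes shifted against one another, Robo4 and Emcn among them. The mean of the 6 tested genes was taken off each gene on the same array, with values under log2 4 set to 4, and since levels of different probe sets cannot be compared, only the change of such a value between groups is read. For Robo4 it was 1.07 to 1.30 log2 units in Sf1-Cre, 3.57 and 3.34 in Dhh-Cre, and -0.43 and -0.49 in the controls, with no overlap. For Emcn it was 0.94 to 1.45 in Sf1-Cre, -0.16 and 0.55 in Dhh-Cre, and -0.49 in both controls. For Tek it was 2.20 to 2.56 in Sf1-Cre, 1.12 and 1.35 in Dhh-Cre, and 2.40 and 2.44 in the controls. The controls thus lay within the range of Sf1-Cre for Tek, and Dhh-Cre lay below both. With low values left as read, Tek was at 2.35 to 2.72 in Sf1-Cre and at 3.22 and 3.17 in the controls, so these no longer overlapped. Robo4 was then at 1.15 to 1.49 in Sf1-Cre and at 0.39 and 0.02 in the controls. Emcn was at 1.13 to 1.57 in Sf1-Cre and at -0.71 and -0.83 in the controls. The mean taken off includes Robo4, which was highest in Dhh-Cre and lowers the other values there.

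Differences against controls did depend on scaling. Centring each array on the median of 12 housekeeping genes lowered every Sf1-Cre difference from controls by 1.75 and every Dhh-Cre difference by 1.71 log2 units, and took the median of all probe sets to -1.39 and -1.14. These genes themselves moved as deposited: 9 of the 12 were higher in Sf1-Cre and 10 in Dhh-Cre, among them Gusb (3.27 in Sf1-Cre), B2m (2.63) and Hprt (2.27), Tbp was lower in both, and their median difference was 0.75 and 0.73. The step is the shift of their median level, which exceeded this median difference, so sign changes under housekeeping centring depend on that choice. Centring by the median difference was not run. Centring on 10 peritubular genes lowered the differences from controls by 0.80 and 1.52. Robo4, Emcn and Esam stayed higher than controls in both mutant groups by limma under each of these, with smallest values over all alternatives of 1.79, 2.78 and 1.64 in Sf1-Cre and of 4.08, 1.81 and 1.15 in Dhh-Cre. Housekeeping centring left these 3 genes higher than controls in each mutant group. The same steps come off every difference from controls given below, so a gene or list with a smaller difference than the step turns sign.

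**Figure D3:**
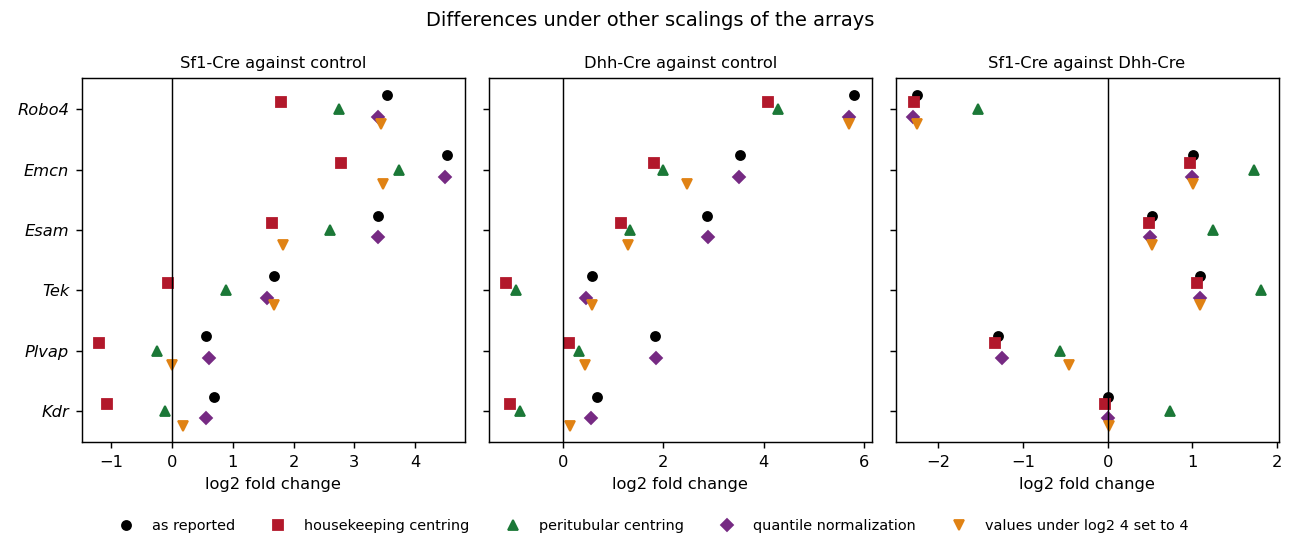
Log2 fold change (x axis) of the 6 tested genes (y axis) as deposited, with each array centred on housekeeping or on peritubular genes, with quantile normalization, and with values under log2 4 set to 4. In both comparisons with controls Robo4, Emcn and Esam stay to the right of 0 under every setting, while Tek falls to -0.071 in Sf1-Cre and -1.12 in Dhh-Cre under housekeeping centring and Plvap and Kdr lie on both sides of 0 in Sf1-Cre.

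Of the genes of angiopoietin ligands and Tek partners, all but Angpt4 rose in Sf1-Cre, and several differed between the mutant groups. Angpt2, the context-dependent angiopoietin ligand, read 6.99, 7.10, 7.62 and 7.46 log2 units in Sf1-Cre, 4.84 and 4.29 in Dhh-Cre, and 3.61 and 4.29 in the controls. The Sf1-Cre arrays lay apart from all others, while the lower Dhh-Cre array and the higher control array were nearly level. Angpt2 was at least 8.87-fold higher in Sf1-Cre than in controls (3.35 ± 0.28 SE, limma adjusted p = 1.32e-05) and higher than in Dhh-Cre by 2.72 (limma adjusted p = 0.000826), whereas in Dhh-Cre it differed from controls by 0.62 (adjusted p = 0.105) and by -1.09 under housekeeping centring. Another Angpt2 probe set passed in Dhh-Cre (0.89, adjusted p = 0.0114). Angpt1, the activating ligand, read 3.67, 4.29, 4.96 and 5.26 in Sf1-Cre, 3.02 and 2.80 in Dhh-Cre, and 1.81 and 1.75 in the controls. It was at least 1.46-fold higher in Sf1-Cre than in controls (2.76 ± 0.40 SE, limma adjusted p = 0.00031) and did not pass in Dhh-Cre (1.12, adjusted p = 0.0519, -0.59 under housekeeping centring). Ptprb, the phosphatase that acts on Tek, rose 8.70-fold in Sf1-Cre and 4.28-fold in Dhh-Cre by its brighter probe set, but its other tested probe set did not pass (0.45, adjusted p = 0.394 in Sf1-Cre, and 0.05, adjusted p = 0.932 in Dhh-Cre). Tie1, the related receptor gene, was at least 2.94-fold and 2.05-fold higher, the Dhh-Cre value turning to -0.23 under housekeeping centring. Of the 5 genes of this list, 4 rose against controls in Sf1-Cre and 3 in Dhh-Cre, against 45.9% and 49.1% of all probe sets. The list medians were 2.76 and 1.48, and 4 and 2 of the genes called stayed above 0 under both centrings. Only 1 of the 5 had a control mean at log2 4 or above. Of tested probe sets below it, 79.7% and 83.9% passed as higher, with medians of 1.52 and 1.62. Angpt4, another ligand gene, was the other member called in Dhh-Cre (2.31, adjusted p = 0.0105) and read 1.32 in Sf1-Cre (adjusted p = 0.0575). Against Dhh-Cre, Ptprb, Angpt2 and Angpt1 were higher in Sf1-Cre, 3 of 5 against 10.2% of all probe sets. The Angpt1 call was lost in 6 of 20 alternatives and held in 5 of 8 fits without 1 array (adjusted p up to 0.113), and the other Ptprb probe set read 0.40 (adjusted p = 0.583).

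**Figure D4:**
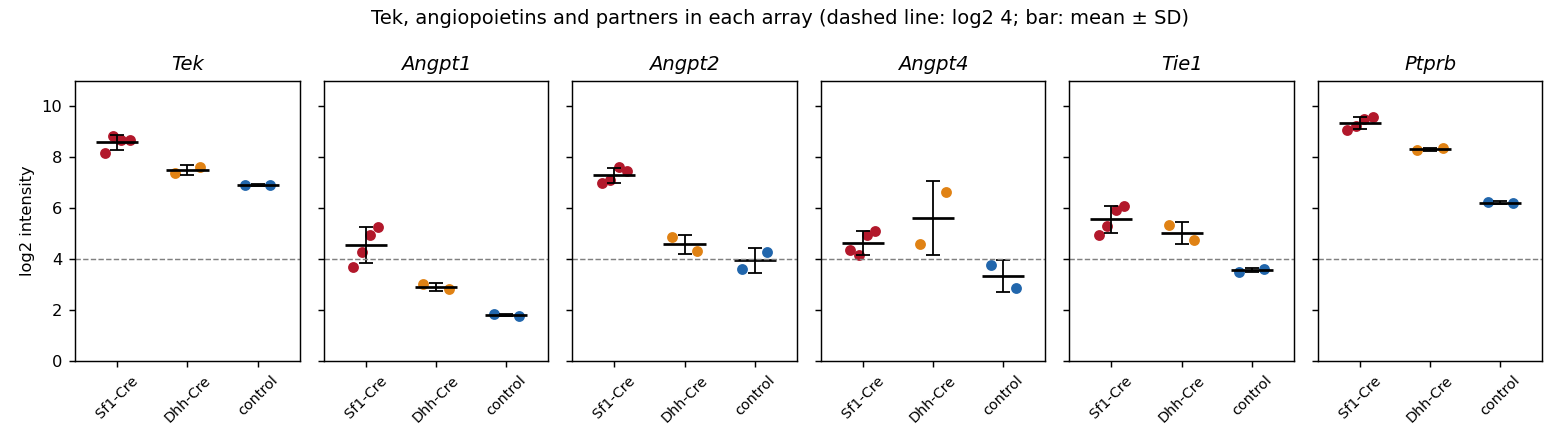
Log2 intensity (y axis) of Tek, its angiopoietin ligands Angpt1, Angpt2 and Angpt4 and its partners Tie1 and Ptprb in each array, with group means and SD (4 Sf1-Cre, 2 Dhh-Cre and 2 control arrays). Angpt2 lies at 6.99 to 7.62 in Sf1-Cre, above its Dhh-Cre and control arrays, and the dashed line marks log2 4.

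Most tested genes of VEGF ligands and co-receptors rose in both mutant groups. Of 8 tested genes of this list, 6 were higher than controls in Sf1-Cre and 6 in Dhh-Cre, against 45.9% and 49.1% of all probe sets, with medians of 2.71 and 2.21, and 5 in each stayed above 0 under both centrings. The co-receptor gene Nrp1 rose 9.86-fold in Sf1-Cre (3.30 ± 0.18 SE, limma adjusted p = 1.56e-06) and 6.54-fold in Dhh-Cre. The ligand gene Vegfd rose 14.4-fold in Sf1-Cre and 21.4-fold in Dhh-Cre, Vegfc rose by 3.58 and 3.18 log2 units, and the co-receptor gene Nrp2 rose 5.83-fold and 4.18-fold in Sf1-Cre and Dhh-Cre. Flt1, another VEGF receptor gene, reached log2 4 on 1 control array only and was not tested. It read 3.90 and 4.63 in the controls and lay below both in every mutant array, at 3.02 to 3.60. Flt4 (0.77 in Sf1-Cre, 0.33 in Dhh-Cre) and the ligand gene Pgf (-0.35 in Sf1-Cre, -0.52 in Dhh-Cre) did not pass in either comparison with controls.

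The Slit ligand genes and other Robo receptor genes varied in response. Of 4 tested Slit and Robo genes, Slit2 and Robo1 rose in Sf1-Cre, by 6.47-fold and 4.97-fold, where 45.9% of all probe sets were higher. In Dhh-Cre, where 49.1% were higher, Slit2, Robo1 and Slit3 rose by 5.36-fold, 3.10-fold and 1.84-fold. The Dhh-Cre values of Slit3 and Robo1 were under 0 when centred on housekeeping genes. Slit3 in Sf1-Cre was at 0.37 (adjusted p = 0.19), or -1.38 with that centring. Robo3, which lies next to Robo4 on chromosome 9, differed by -0.17 in Sf1-Cre (adjusted p = 0.428) and by 0.20 in Dhh-Cre (adjusted p = 0.424), or -1.51 with that centring. Slit1, Robo2 and Unc5b, a receptor that Robo4 binds, stayed under log2 4 in every array. Of the 4 tested genes, 0 passed by limma between the mutant groups, against 21.4% of all probe sets, with adjusted p from 0.0719 (Robo1) to 0.331 (Slit2).

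Among the other endothelial genes, most rose in both groups. In the list of junction and caveola genes, 11 of 12 were higher in Sf1-Cre and 12 of 12 in Dhh-Cre than in controls, against 45.9% and 49.1% of all probe sets, with medians of 3.52 and 3.19, and 11 in each stayed above 0 under both centrings. Jam3, a junction gene, was the exception in Sf1-Cre (0.33, adjusted p = 0.174) and was lower there than in Dhh-Cre (-1.36, adjusted p = 0.0042). Cav2, a caveola gene, was at least 16.2-fold and 7.30-fold higher in Sf1-Cre and Dhh-Cre, the caveola genes Cavin2 and Cav1 rose 15.8-fold and 17.6-fold in Sf1-Cre, and the adhesion gene Icam1 rose 12.1-fold. In the list of other endothelial marks, 13 of 15 tested genes were higher in Sf1-Cre and 14 of 15 in Dhh-Cre, beside the same 45.9% and 49.1%, with medians of 2.92 and 2.32, and 11 in each stayed above 0 under both centrings. Of the 20 genes of this list on the array, Sele, Gpihbp1, S1pr1, Esm1 and Apln were not tested. Gpihbp1 reached log2 4 on 1 array and the other 4 on none. The counts thus hold for genes that passed the filter, which mutant arrays alone can meet. Procr, the protein C receptor gene, was at least 36.5-fold higher in Sf1-Cre and 42.5-fold in Dhh-Cre, Cd34 rose 8.61-fold and 6.14-fold, and Calcrl and Ramp2, which form a receptor together, rose 10.1-fold and 12.2-fold in Sf1-Cre. Vwf, the von Willebrand factor gene, did not pass in Sf1-Cre (0.75, limma adjusted p = 0.0893) or in Dhh-Cre (0.64, adjusted p = 0.195), and Thbd, the thrombomodulin gene, did not pass in Sf1-Cre (0.85, adjusted p = 0.0911).

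Transcription factor genes of endothelium were split. Of 14 tested, 11 were higher than controls in Sf1-Cre and 9 in Dhh-Cre, beside the same shares, with medians of 1.86 and 1.43, of which 8 and 6 stayed above 0 under both centrings, and Klf4, a factor also made in spermatids, fell 9.88-fold and 5.65-fold. Lyl1, a blood and endothelial factor, was at least 15.1-fold and 8.84-fold higher. Hey2, a Notch target, was at least 19.6-fold and 6.30-fold higher, and its difference of 1.64 between Sf1-Cre and Dhh-Cre passed (limma adjusted p = 0.0046). Fli1, an ETS factor gene, was at least 1.52-fold higher in Sf1-Cre. Erg, another ETS factor gene of endothelium, and Sox7 stayed under log2 4 in every array.

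Marks of vessel-associated and blood cells moved with the same arrays. All 6 tested pericyte genes rose in both groups, against 45.9% and 49.1% of all probe sets, with medians of 2.91 and 2.97. Only 2 had a control mean at log2 4 or above, and 79.7% and 83.9% of tested probe sets below it passed as higher. Under housekeeping centring 4 in Sf1-Cre and 6 in Dhh-Cre stayed above 0. Rgs5 rose 10.5-fold and 12.2-fold, and Kcnj8, Pdgfrb and Notch3 by at least 4.33-fold, 10.8-fold and 5.71-fold in Sf1-Cre. Another Pdgfrb probe set read 1.21 and 0.98, under the housekeeping steps of 1.75 and 1.71, as did another of Notch3. Other Rgs5 probe sets read 2.57 and 2.33 in Sf1-Cre, above that step, but 1 read 1.36 in Dhh-Cre. The summed intensity of the pericyte genes was 1190 to 1941 in Sf1-Cre, 2151 and 1588 in Dhh-Cre, and 196.6 and 205.4 in the controls. Cspg4, a defining gene, reached log2 4 on 1 array and was not tested. For platelets, which also carry Esam and Pecam1, 4 of 6 genes, Itga2b, Gp9, Gp5 and Ppbp, were under the floor in all arrays. Their summed intensity of 2992 to 3749 in Sf1-Cre, 2480 and 2868 in Dhh-Cre, and 264.3 and 266.8 in the controls came mostly from Pf4, which macrophages can also make, and Gp1bb was lower in Sf1-Cre than in controls (-1.24, adjusted p = 0.00255). Among 11 macrophage genes, 10 were higher in each mutant group, against 45.9% and 49.1% of all probe sets, and Aif1 was lower. Their sums were 19640 to 22930 in Sf1-Cre, 12760 and 13650 in Dhh-Cre, and 12530 and 7969 in the controls, with 0 of the 11 under the floor in all arrays. Aif1 made up 83.8% of the control sums, and without it the other 10 summed to 18800 to 22110 in Sf1-Cre, 12440 and 13090 in Dhh-Cre, and 1706 and 1622 in the controls. Of 3 lymphatic genes, Prox1, which defines lymphatic endothelium, stayed under log2 4 in every array, while Pdpn rose 15.9-fold and 19.4-fold and Lyve1 was higher in both groups, and the sum was 3766 to 4717 in Sf1-Cre, 5324 and 4877 in Dhh-Cre, and 273.2 and 269.8 in the controls, of which Pdpn alone made up 98.9% in the mutant arrays. The part of these cells in the results was not tested.

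Peritubular smooth muscle genes, used above for centring, moved between the mutant groups. Of 10, 8 were higher than controls in each mutant group, against 45.9% and 49.1% of all probe sets, and Actg2 was lower in both. Of these 8, 2 in Sf1-Cre and 7 in Dhh-Cre stayed above 0 under housekeeping centring. Acta2, Tpm2, Lmod1, Myh11 and Cnn1, which encode proteins of the contractile apparatus, were lower in Sf1-Cre than in Dhh-Cre, by -0.67 to -1.63. These were 5 of 10 against 11.2% of all probe sets, and the list's median was -0.70. The summed intensity of the 10 was 9061 to 10670 in Sf1-Cre, 14010 and 16620 in Dhh-Cre, and 7215 and 7219 in the controls.

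**Figure D5:**
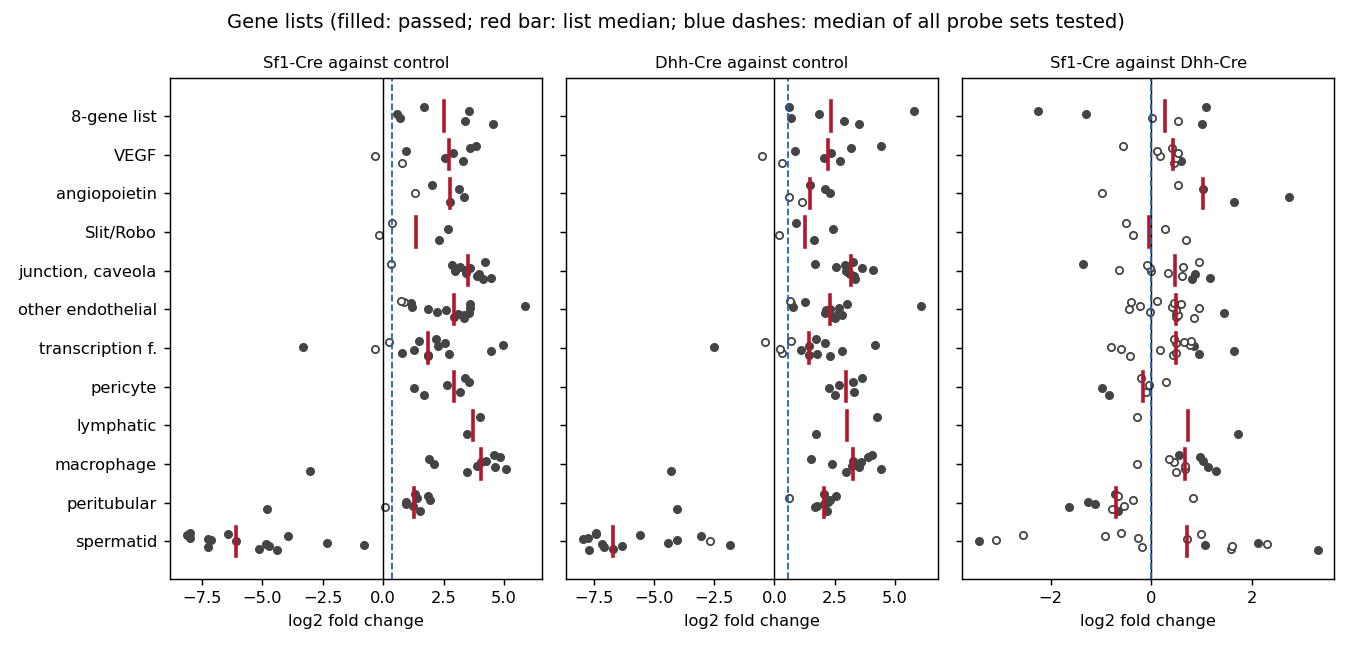
Log2 fold change (x axis) of each tested gene of 12 lists (y axis) in the 3 comparisons, with filled points for genes that passed at adjusted p under 0.05, red bars for list medians and dashed lines for the median of all probe sets tested. The 6 tested genes of the 8-gene list have a median of 2.54 in Sf1-Cre and 2.36 in Dhh-Cre against controls, and spermatid genes lie at a median of -6.08 and -6.71.

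Many other genes shared the profile of the 8 genes over the 8 arrays. Averaged over their log2 values, with the brighter probe set for Cdh5, it ran from 4.96 to 5.43 in Sf1-Cre, 5.29 and 5.32 in Dhh-Cre, and 3.32 and 3.42 in the controls. The 5 other genes with the highest Pearson's r to it were Mpdu1, Tradd, Lypla1, Ndfip1 and Ankrd46, with r of 0.998 to 0.999 over 8 arrays, and 2998 of 13795 genes had r over 0.95. The arrays fall into 3 groups, which all such genes share.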

How the data were processed

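The submitters extracted total RNA with TRIzol, labelled it with biotin and hybridized 1 array per sample, per the labels' protocols. The deposited intensity values were made with GCRMA, per the submitters' processing notes, which name no version. The values are linear and were converted to log2 for all tests. Symbols follow the platform table, updated by Entrez identifier to GRCm38.p6: 34958 probe sets have 1 symbol, 932 several and 9211 none.

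Probe sets with at least 2 arrays at log2 4 (an intensity of 16) were tested, 25761 in all, leaving out 64 control probe sets. Limma 3.58.1 in R 4.3.3 fitted 3 group means to the 8 arrays (5 residual degrees of freedom), with 2-sided p-values adjusted by Benjamini and Hochberg over all probe sets tested and 0.05 as the threshold. A bound is the mean of the higher group against the mean of the lower with values under log2 4 set to 4. Lists use the probe set of highest mean per gene. From each list, up to 4 genes of lowest p in Sf1-Cre against control are named, with others to spell out small counts. Of the named genes 12 had another tested probe set, and no sign differed against controls, though those of Ptprb, and 1 of Rgs5 in Dhh-Cre (1.36, adjusted p = 0.0773), did not pass. Between the mutant groups Nrp1, Klf4, Rgs5 and Notch3 had one of opposite sign. The fit was tested on simulated data. Members and lists were chosen with earlier results of these data known. Alternatives are in the closing section. Figures used Python 3.11.15 and matplotlib 3.10.9.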

Additional observations from a re-analysis of the deposited data

Results flagged for a closer look

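The effects of the 2 deletions differed, by limma's test of the difference, for 4 of the 8 genes. The Sf1-Cre effect minus the Dhh-Cre effect was -2.25 for Robo4, -1.29 for Plvap, 1.01 for Emcn and 1.09 for Tek on the log2 scale.

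Of 30 genes picked from the other lists by lowest p in Sf1-Cre against control, it passed for 11, against 21.4% of all probe sets. That choice favours genes with a large Sf1-Cre difference, so their shared direction is not read as a result. Genes outside it were called both ways, among them Jam3 and 5 peritubular genes as lower and 5 macrophage genes as higher. The difference was 2.72 for Angpt2, 1.72 for Lyve1, 1.64 for Angpt1, 1.64 for Hey2, 1.15 for Cav2 and 1.03 for Ptprb. For the rest it was 0.95 for Fli1, 0.86 for Cavin2, 0.80 for Cav1, 0.59 for Nrp1 and 0.49 for Cd34. All 11 were higher in Sf1-Cre. The call was lost for Cd34 in 13 of 22 alternatives and in each of the 8 fits without 1 array. It was lost for Nrp1 in 13 of 22, with another Nrp1 probe set at -0.05, for Fli1 in 8 of 21, for Angpt1 in 6 of 20, for Cav1 in 5 of 22, for Cavin2 in 4 of 22, for Ptprb in 3 of 22 and for Cav2 in 1 of 22. Angpt2, Hey2 and Lyve1 passed in all alternatives that could test them.

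In Slit2 the Sf1-Cre replicate 3 array stood apart from the other 3, at 8.67 against 8.30 to 8.33 log2 units, a gap of 0.915 of the group's range, above Dixon's 95% critical value for 4 samples. Chance flags about 1 in 20 such groups. The rule was applied to the 9 probe sets of the 8 genes and to the 30 genes picked from the other lists, and gave 1 flag.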

How the results depend on the processing

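Robo4, Emcn and Esam passed as higher than controls in both mutant groups under every alternative that could test them, 22 each for Robo4 and Emcn and 21 for Esam. A filter at log2 6 leaves only Robo4, Emcn and Tek to test, so the count of genes higher than controls was then 3 in each mutant group and the count lower in Sf1-Cre than in Dhh-Cre was 1. Housekeeping centring gave 3 higher in Sf1-Cre and 3 in Dhh-Cre, with Tek at -0.071 and -1.12, Kdr at -1.07 and -1.04, Plvap at -1.20 in Sf1-Cre, and Kdr at -0.030 between the mutant groups. The share of higher genes among all those called went to 15.2% in Sf1-Cre and 16.8% in Dhh-Cre, against 59.2% and 63.0% as deposited. Peritubular centring gave 3 higher in Dhh-Cre, 4 higher and 1 lower in Sf1-Cre than in Dhh-Cre, with Plvap at -0.25 and Kdr at -0.12 in Sf1-Cre and Tek at -0.93 and Kdr at -0.85 in Dhh-Cre; those shares were then 35.0% and 19.2%, and 94.9% between the mutant groups against 47.8%, with 14817 called there. The count higher in Sf1-Cre than in Dhh-Cre, 2 as reported, was 1 with no filter, with values under log2 4 set to 4, with quantile normalization, with only the 2 groups fitted and at adjusted p under 0.01, where 2089 were called over the array. The count lower was 1 with low values set to 4. Without the 3 Spink8 arrays, chosen after seeing the data, these counts were 0 and 1, and Kdr read -0.090, with 1151 probe sets called over the array against 5508. The causes of these changes were not tested.

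Between the mutant groups 1862 probe sets were called without Dhh-Cre replicate 1 and 3272 without Dhh-Cre replicate 2. Leaving out each array in turn gave 4 to 6 genes higher than controls in each mutant group, and 0 to 2 higher and 1 to 2 lower between the mutant groups, where Kdr ran from -0.14 to 0.16, reading -0.14 without Dhh-Cre replicate 1, -0.020 without Sf1-Cre replicate 3 and -0.074 without Sf1-Cre replicate 4. Replicate numbers shared by the groups were tried as a block, which left 1 gene higher between the mutant groups, Tek, with Kdr at -0.16. Same-numbered control and Dhh-Cre arrays correlated at 0.0132 in their deviations, and control and Sf1-Cre arrays at 0.025 and -0.138. For Dhh-Cre and Sf1-Cre arrays the values were -0.177 and 0.258. Deviations in a group of 2 arrays are mirror images, so these values cannot tell whether the samples share more than a number. Over all probe sets the block called 17515 in Sf1-Cre against 19983 without it.

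With 1 probe set per gene the counts over the array were 11019 in Sf1-Cre, 10986 in Dhh-Cre and 3402 between them, and with the mean of all probe sets 10366, 10399 and 3357, from fewer rows tested. Other named genes changed sign under scaling. With housekeeping centring Slit3 read -1.38 in Sf1-Cre, and in Dhh-Cre Angpt2 read -1.09, Angpt1 -0.59, Tie1 -0.23, Robo1 -0.079, Slit3 -0.83 and Robo3 -1.51. With peritubular centring Slit3 read -0.43 in Sf1-Cre, and in Dhh-Cre Angpt2 read -0.90, Angpt1 -0.40, Tie1 -0.043, Slit3 -0.64 and Robo3 -1.32. Robo3 read -0.00375 in Dhh-Cre with quantile normalization. Levels near log2 4 limit what can be said of Plvap, Kdr, Pecam1 and Cdh5.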
